A study of Homo sapiens with 24 samples.

Results

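The combination of PI103 and (5Z)-7-oxozeaenol (oxozeaenol here) was compared with control in AGS, an established human gastric adenocarcinoma line, by RNA sequencing of cultures taken 24 h after exposure. PI103 inhibits class I PI3 kinases and mTOR, and oxozeaenol inhibits the kinase TAK1, the product of MAP3K7. Libraries were chosen by the group in their sample titles, which gave 4 of the combination and 4 of control, or 8 of the 24 libraries of the series. Cells of the combination had received 0.35 µM PI103 and 0.25 µM oxozeaenol, which is 50% of the 0.7 µM and 0.5 µM given in the single-agent groups. Control cells had received neither compound, and the labels do not say whether they had received vehicle. All groups were wild-type AGS grown in the same medium and harvested at the same time. The design text calls the 4 replicates of a group biological, and by the labels each replicate number is a batch. Values are from bulk RNA of whole cultures, so fewer cells that express a gene and less RNA per cell cannot be told apart.

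PI3 kinase turns growth factor and insulin signals into AKT activity, and AKT holds FOXO transcription factors out of the nucleus. The mTOR kinase, in the complex mTORC1, raises protein, nucleotide and lipid synthesis, in part through the transcription factors ATF4, HIF-1 and SREBP, and holds back the lysosomal regulator TFEB. TAK1 passes signals from cytokine and innate immune receptors to the IkB kinases, which release NF-kB, and to the JNK and p38 kinases, which feed the AP-1 factors. ATF4 is also the effector of the integrated stress response, in which phosphorylation of eIF2 lowers general translation while ATF4 protein rises. Its target genes supply amino acids, charge tRNAs and adjust redox state. The series title places these cultures in work on metabolic changes caused by the inhibitors, so the comparison asks which metabolic and signalling genes the combination moved.

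Promoter stretches of 4 strongly lowered ATF4 targets and of 1 sterol regulator are shown first. They hold elements linked to transcription factors whose target lists are described below. They were picked among list members that held the element and were called, and most members with a window did not hold it. They were read from RefSeq promoter windows of the GRCh38.p14 build, which reach from 250 bases before to 50 bases after the start of a gene. Capitals mark TGATGNAA, the core of the C/EBP-ATF response element, in the first 4 lines, and TCACNCCAC, a sterol response element, in the last. Each is printed 5′ to 3′ on the strand of its gene.
ATF3, chr1:212565200-212565239, plus strand, element 191 to 184 bases before the start: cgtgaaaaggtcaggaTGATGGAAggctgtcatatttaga
ASNS, chr7:97872453-97872492, minus strand, element 68 to 61 bases before the start: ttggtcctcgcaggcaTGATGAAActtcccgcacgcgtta
CHAC1, chr15:40953246-40953285, plus strand, element reversed, 209 to 202 bases before the start: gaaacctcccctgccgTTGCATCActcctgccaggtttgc
FGF21, chr19:48755454-48755493, plus strand, element reversed, 54 to 47 bases before the start: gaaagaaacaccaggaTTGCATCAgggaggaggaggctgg
SREBF2, chr22:41832956-41832996, plus strand, element 133 to 125 bases before the start: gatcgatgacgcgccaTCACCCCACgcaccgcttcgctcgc
On either strand, TGATGNAA was present in 4 of the 20 windows found for the ATF4 list (20%), in 1270 of all 35116 windows (3.62%) and in 1.74% of the 9472 windows of genes tested here. TCACNCCAC was present in 1 of 21 windows of the cholesterol list (4.76%), beside 1.13% of all windows and 1.11% of those of genes tested. The palindrome TCACGTGA, the core of the CLEAR element read by TFEB, was present in 5 of 36 windows of the lysosome and autophagy list (13.9%), beside 0.98% of all windows and 1.94% of those of genes tested. CACGTG, the E-box read by MYC and MAX, which TCACGTGA contains, was present in 11 of 38 windows of the ribosome biogenesis list (28.9%) and in 3 of 12 of the MYC network list (25%), beside 7.26% of all windows and 9.83% of those of genes tested. These matches describe letters in a window and were not tested.

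The 4 control libraries held 56249866 to 84226380 counts in genes and the 4 combination libraries 52736494 to 77704666. Reads with no annotated feature made up 5.20% to 6.64% of tallied reads in control and 6.03% to 8.5% in the combination. In a principal component analysis of log2 counts-per-million (CPM) of these 8 libraries, the first component held 73.4% of the variance and separated the groups. Combination replicate 2 lay at 35.49 on it, nearer to control than the other combination libraries at 46.85 to 53.62. Control replicates 1 and 3 and control replicates 2 and 4 lay on opposite sides of the second component, which held 8.2%. Combination replicate 4 lay furthest out on that component, at 25.67, with the other combination libraries at -13.87 to -6.062. It also held the highest share of reads with no annotated feature, 8.5%. Epithelial markers summed to 6440 to 7390 CPM in control and 6330 to 7600 CPM in the combination, with 10 of 10 above 1 CPM. Markers of endothelial cells summed to at most 0.341 CPM and those of fibroblasts to 14.3 to 17.4 CPM in control and 9.22 to 11.2 CPM in the combination. Muscle markers summed to 2.19 to 2.81 CPM in control and 6.14 to 6.82 CPM in the combination, with 3 of 7 at 0 counts in both groups. Immune markers summed to 40.1 to 50.4 CPM in control and 242 to 310 CPM in the combination. That sum was carried by LYZ, a lysozyme gene that gastric epithelium also expresses and that was singled out after its values were seen, at 44.9 ± 4.99 CPM in control against 271 ± 29.9 CPM in the combination (SD, n = 4).

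Of 23368 genes in the table, 13947 passed a filter on low counts and were tested, and 7757 of these (55.6%) were called, that is, had an adjusted p under 0.05 in edgeR's quasi-likelihood F test with Benjamini-Hochberg adjustment over all genes tested. Every adjusted p below comes from this test. In the combination 3868 genes (27.7%) rose and 3889 (27.9%) fell. Genes called lower held 37.84% of all CPM in control and 25.9% in the combination, while genes called higher held 17.28% and 27.23%. Changes of at least 2-fold numbered 1184 upward and 700 downward, and changes of at least 16-fold 27 upward and 45 downward. Same-numbered libraries differed in the called direction in all 4 batches for 3705 of the raised and 3773 of the lowered genes. The CPM of the 2 groups did not overlap for 3601 higher (25.8%) and 3735 lower genes (26.8%) among those tested. With this many genes called, the members of any list are to be read against those shares, and the median log2 fold change of all genes tested was 0.02.

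The 10 genes with the largest rises, among genes called with a mean of at least 5 CPM in the higher group and the same sign in all 4 batches, were TTN, TNNT2, CFB, PAGE4, PDZK1IP1, RARRES3, CTSO, MEGF6, CXCL11 and UPK3B. TTN encodes titin, the giant elastic protein of the sarcomere, and lies at chr2:178525989-178830802 on the minus strand. Its 4 control libraries held 0.13, 0.186, 0.147 and 0.105 CPM and its 4 combination libraries 4.63, 4.93, 5.71 and 9.71 CPM, in the order of the replicate numbers used throughout. TNNT2, which encodes cardiac troponin T, was at 0.146, 0.205, 0.318 and 0.433 CPM in control and 13.5, 11.6, 11.8 and 13 CPM in the combination, with a log2 fold change of 5.44 (SE 0.27, adjusted p = 4.88e-14). In both sarcomere genes every combination library stood far above every control library. CFB, the gene of complement factor B at chr6:31945650-31952084 on the plus strand, rose from 0.366 ± 0.088 to 8.83 ± 1.81 CPM (SD, n = 4), or 24.1-fold, and 45.5% of its exon length is shared with another annotated gene on the same strand. PAGE4, a cancer/testis antigen gene at chrX:49829260-49833973 on the plus strand, was the most abundant of the 10 after treatment: its libraries held 4.45, 9.07, 6.99 and 8.21 CPM in control and 129.7, 110.1, 101 and 167 CPM in the combination. The groups of PAGE4 lay far apart, with a log2 fold change of 4.14 (SE 0.28, adjusted p = 3.15e-11). UPK3B, which encodes an uroplakin of epithelial membranes, rose 7.81-fold from 4.04 ± 0.386 to 31.5 ± 2.86 CPM and had the smallest adjusted p of the 10, 7.06e-15. CXCL11, an interferon-inducible chemokine gene, and RARRES3, a retinoid-responsive gene now named PLAAT4, rose 7.98-fold and 8.95-fold. CTSO, the gene of the lysosomal protease cathepsin O, rose 8.26-fold from 0.902 ± 0.129 CPM, MEGF6 rose 8.0-fold and PDZK1IP1 17.1-fold. No control library of any of these 10 genes reached the lowest combination library. The rule picked the genes by size and sign in these same libraries, so this gap largely follows from the choice.

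The 10 largest falls under the same rule were those of KLHDC7B, TRIB3, SPRR2D, FGF21, INHBE, IL8, SERPINB2, DDIT4, ECM2 and FLJ22447. Several are targets of ATF4. TRIB3, a pseudokinase gene at chr20:362835-397559 on the plus strand whose product binds AKT, was at 23.5, 34.6, 24.8 and 41.5 CPM in control and 0.0258, 0.284, 0.0178 and 0.0568 CPM in the combination. FGF21, which encodes a secreted metabolic hormone, was at 8.42, 12.4, 8.01 and 15.7 CPM in control and 0.0258, 0.284, 0 and 0.0189 CPM in the combination. INHBE, an inhibin beta subunit gene, was at 58.8, 58.5, 47.8 and 65.7 CPM in control and 0.0516, 2.32, 0.142 and 0.0568 CPM in the combination. In all 3 genes combination replicate 2 was the highest library of its group and still lay below every control library. Without that library the log2 fold changes went from -8.34 to -9.83 for TRIB3, from -7.06 to -9.27 for FGF21, from -6.50 to -9.45 for INHBE and from -5.44 to -6.44 for ECM2, an extracellular matrix gene. DDIT4 encodes REDD1, an inhibitor of mTORC1, and lies at chr10:72273920-72276036 on the plus strand, where an antisense transcript covers 41.2% of its exon length on the other strand. Its libraries held 584, 703, 593 and 792 CPM in control and 3.16, 32.6, 2.95 and 3.45 CPM in the combination, and its log2 fold change went from -5.99 to -7.71 without combination replicate 2. KLHDC7B was at 7.87, 4.15, 3.29 and 4.87 CPM in control and had 0 counts in all 4 combination libraries, which makes it at least 414-fold lower when 3 counts over the group are taken as the floor.

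IL8 (CXCL8), the neutrophil chemokine gene at chr4:73740506-73743716 on the plus strand, fell from 10.2 ± 4.91 to 0.13 ± 0.0648 CPM (SD, n = 4), with a log2 fold change of -6.34 (SE 0.44, adjusted p = 2.09e-11). Its control libraries held 4.97, 14, 7.05 and 14.7 CPM, so that replicates 2 and 4 were the higher pair, and without those 2 libraries the log2 fold change was -5.58. SERPINB2, which encodes the plasminogen activator inhibitor PAI-2, fell 65.9-fold, from 10.5, 9.81, 7.26 and 15.9 CPM to 0.129, 0.20, 0.16 and 0.17 CPM. SPRR2D, a small proline-rich gene of the cornified envelope with near-identical neighbours in its family, fell from 17.3 ± 9.12 to 0.11 ± 0.0854 CPM. FLJ22447, a non-coding RNA gene, fell from 83.4 ± 8.63 to 2.63 ± 0.966 CPM, or 31.7-fold. The plot of the largest changes shows each library of these 20 genes.

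**Figure D1:**
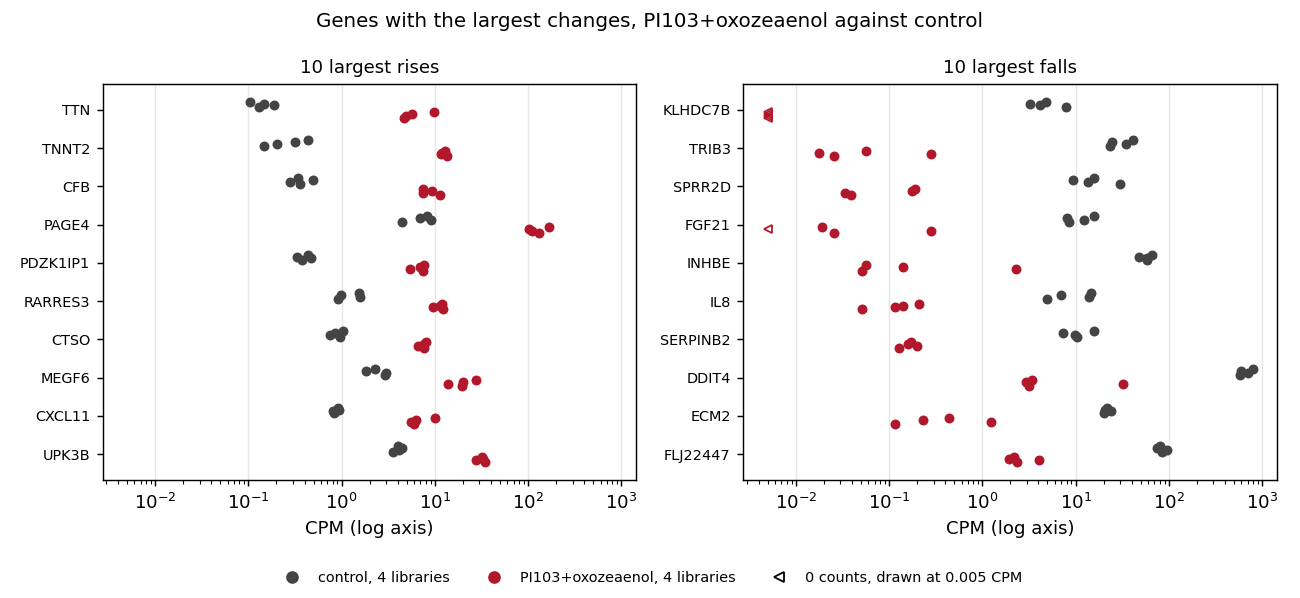
CPM of each library on a log axis for the 10 genes with the largest rises (left) and the 10 with the largest falls (right); dark points are the 4 control libraries, red points the 4 libraries with PI103 and oxozeaenol, and open triangles mark 0 counts, drawn at 0.005 CPM. The colours do not overlap in any row, which largely follows from the choice of genes by size and sign in these libraries. In TRIB3, FGF21, INHBE, DDIT4 and ECM2 1 red point, combination replicate 2, lies apart from the other 3 toward control.

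The largest gains in mean CPM among called genes were those of HSPA8, HSP90B1, S100A10, CALR and PTMA. HSPA8 encodes the constitutive cytosolic HSP70 chaperone, and its libraries held 1904, 738, 1189.8 and 776 CPM in control and 3581, 3831, 3824 and 3258 CPM in the combination. The control libraries of HSPA8 were spread widely, with replicate 1 the highest and replicates 2 and 4 the lowest, and the log2 fold change of 1.65 became 2.25 without replicates 1 and 3. HSP90B1, the endoplasmic reticulum chaperone GRP94, rose from 1677, 1428, 1966 and 1377 to 4347, 3618, 3992 and 3534 CPM, and CALR, the calcium-binding chaperone calreticulin, from 1418 ± 77.7 to 2467 ± 229.9 CPM (SD, n = 4). S100A10, a partner of annexin A2 at the membrane, rose 2.24-fold from 1550.2 ± 39.9 CPM, and PTMA, which encodes prothymosin alpha, 1.53-fold from 1819 ± 111 CPM. The largest losses in mean CPM were those of PSAT1, ERRFI1, ASNS, CD55 and ANKRD1. PSAT1, the aminotransferase of serine synthesis, lost most, from 1643, 1976, 1830.2 and 1998 to 161, 412, 177 and 164 CPM. ERRFI1, a feedback inhibitor of the EGF receptor, fell 12.8-fold, from 1676 ± 259.8 to 131 ± 28.2 CPM (SD, n = 4). ANKRD1, a target of YAP and TEAD, fell 5.61-fold from 1151 ± 322 CPM, and CD55, which protects cells from complement, fell 1.97-fold from 2072 ± 257 CPM.

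Feedback and target genes of the MEK-ERK pathway were lower with the combination: 22 of 26 members tested were called lower (84.6%, beside 27.9% of all genes tested). In this list 1 member was called higher (2 with the replicate number as a block), and the median log2 fold change was -1.35. Of the feedback inhibitors, DUSP6, the ERK phosphatase, was at 134, 129.5, 115 and 148 CPM in control and 36, 40.3, 33.1 and 30.4 CPM in the combination, a fall of 3.77-fold. SPRY4, a Sprouty inhibitor of receptor tyrosine kinase signalling, fell 2.73-fold. Its relative SPRY1 was the single member called higher, at 9.69 ± 0.715 and 13.3 ± 0.857 CPM (SD, n = 4; log2 fold change 0.46, adjusted p = 0.00123). The immediate-early transcription factor gene EGR1, at chr5:138465490-138469315 on the plus strand, was at 157, 240.3, 158 and 249 CPM in control and 6.21, 10.9, 5.67 and 6.97 CPM in the combination, a log2 fold change of -4.76 (SE 0.49, adjusted p = 7.82e-08). FOSL1, which encodes the AP-1 subunit FRA-1, fell 4.76-fold, and ETV5, an ETS factor gene, fell 2.52-fold with an adjusted p of 0.0144, a call lost without control replicates 2 and 4 (adjusted p = 0.0617). Further immediate-early genes fell: IER3 15.1-fold (adjusted p = 2.26e-12), IER2 3.26-fold (adjusted p = 3.83e-10) and PHLDA1 6.25-fold (adjusted p = 5.79e-13). IER2, IER3 and DUSP6 each share at least 20% of their exon length with a transcript on the other strand.

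Of EGF receptor family ligands and proteins that shed them, 4 of 9 tested were lower (beside 27.9% of all genes tested) and 2 higher (27.7%). The 2 became 1 without control replicate 2 or 4 or combination replicate 1, 2 or 3, and without combination replicate 2 the median log2 fold change went from -0.20 to -0.49. HBEGF, the heparin-binding ligand gene at chr5:140332843-140346631 on the minus strand, was at 69.1, 93, 72.2 and 103 CPM in control and 14.1, 14.4, 12.9 and 13.2 CPM in the combination. No library of the 2 groups overlapped, and the log2 fold change was -2.63 (SE 0.14, adjusted p = 1.49e-13). HBEGF was named in part by its adjusted p in these libraries, so this gap largely follows from the choice. TGFA fell from 44.5 ± 2.17 to 30.5 ± 1.51 CPM (SD, n = 4) and BTC, the betacellulin gene, from 5.1 ± 0.615 to 2.81 ± 0.411 CPM. RHBDF1, an inactive rhomboid protein gene that controls the sheddase ADAM17, rose 1.43-fold. AREG was not tested, with 0 counts in all control and combination libraries, and EREG was near 0 in both groups, at 0.103 ± 0.0506 and 0.175 ± 0.050 CPM.

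Of NF-kB feedback and chemokine genes, 14 of 19 tested were lower (73.7%, beside 27.9% of all genes tested) and 3 higher. The median log2 fold change of the list was -0.61. Besides IL8, the prostaglandin synthase gene PTGS2 (COX-2) fell from 51.6, 77.2, 68.8 and 83.6 CPM to 16, 17.9, 14.2 and 14.4 CPM, and NFKBIB, which encodes the inhibitor IkB-beta, from 33.7 ± 3.84 to 14.5 ± 1.54 CPM (SD, n = 4). The 2 classical feedback genes went the other way. NFKBIA, which encodes IkB-alpha, was at 34.4 ± 2.84 and 39.6 ± 1.9 CPM (log2 fold change 0.20, adjusted p = 0.0276), and that call was lost without control replicate 1 or 2 or without combination replicate 1 or 3, with log2 fold changes of 0.15 to 0.20. TNFAIP3, which encodes the deubiquitinase A20, was at 2.57, 2.63, 2.48 and 2.79 CPM in control and 4.1, 3.56, 4.39 and 3.86 CPM in the combination, a rise of 1.52-fold at a low level (adjusted p = 0.0157), and this call was lost without either pair of control replicates (adjusted p = 0.0972 and 0.0502).

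The ATF4 list had the lowest median of the 43 lists described: 22 of 23 members tested were called lower (95.7%, beside 27.9% of all genes tested), the other was not called, and the median log2 fold change was -3.37. Summed over the list, CPM were 6284 ± 998 (SD, n = 4) in control and 1045 ± 188 in the combination. ATF4 itself, at chr22:39519695-39522685 on the plus strand, was at 759, 810.1, 726 and 868 CPM in control and 391, 451, 366 and 385 CPM in the combination, a fall of 1.99-fold in its mRNA. The transcription factor genes downstream fell further. DDIT3, which encodes CHOP, was at 72.4, 139.7, 88.2 and 156 CPM in control and 10.4, 12.7, 8.97 and 12.3 CPM in the combination, and ATF3 fell from 399.6 ± 128 to 70.9 ± 11.3 CPM (SD, n = 4). CHAC1, which encodes a glutathione-degrading enzyme, was at 197, 247, 204 and 270.4 CPM in control and 6.91, 27.7, 6.69 and 5.17 CPM in the combination, with a log2 fold change of -4.31 (SE 0.50, adjusted p = 5.14e-07). ASNS, the asparagine synthetase gene at chr7:97852118-97872542 on the minus strand, fell from 1162, 1767, 1269 and 1798 CPM to 47.2, 189, 50.7 and 53.7 CPM, a log2 fold change of -4.14 (SE 0.40, adjusted p = 1.75e-08). In both genes replicate 2 was the highest combination library, and the log2 fold changes without it were -5.19 and -4.89. The genes of the list with the smallest adjusted p were PPP1R15A, the eIF2 phosphatase subunit GADD34, CEBPG, the dimer partner of ATF4, and VEGFA, the angiogenic growth factor. They fell 4.37-fold (adjusted p = 5.98e-12), 2.72-fold (adjusted p = 2.19e-11) and 4.84-fold (adjusted p = 2.84e-11). Without combination replicate 2, 22 members of the list were lower and the median was -3.53. ASNS shares 44.6% of its exon length with another annotated gene on the same strand, and DDIT3 overlaps a transcript on the other strand.

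**Figure D2:**
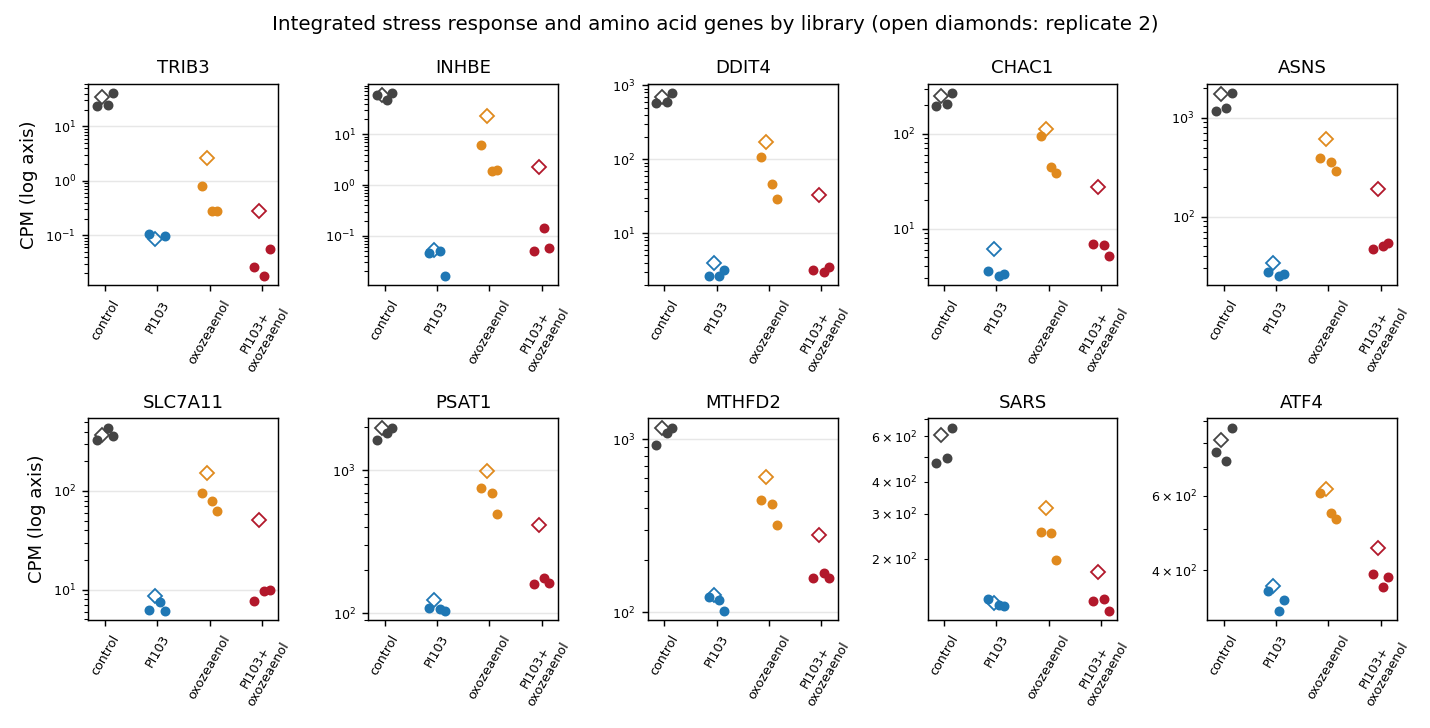
CPM of each library on a log axis for 10 genes of the integrated stress response, amino acid supply and tRNA charging in control, PI103 alone (0.7 µM), oxozeaenol alone (0.5 µM) and the combination (0.35 µM and 0.25 µM); open diamonds are replicate 2 of each group and filled points the other 3 replicates. All combination libraries lie below all control libraries, and replicate 2 is the highest library of the combination, and of oxozeaenol alone, in every panel. The lists behind the panels were chosen with earlier results known, and 26.8% of all genes tested lay below control in this way.

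Amino acid transporters moved both ways: 11 of 19 members tested fell and 6 rose, beside 27.9% and 27.7% of all genes tested. Their median log2 fold change was -1.29. The 2 chains of the leucine transporter LAT1 fell together, SLC7A5 from 1073, 1016, 850.2 and 1044 CPM to 267, 388, 273 and 277 CPM and SLC3A2 2.45-fold from 562 ± 36.3 CPM. SLC7A11, the cystine importer that shares SLC3A2, was at 328, 366, 439.7 and 360.2 CPM in control and 7.62, 51.3, 9.71 and 10.0 CPM in the combination. Its log2 fold change of -4.25 became -5.36 without combination replicate 2. The glutamine transporters SLC1A5 and SLC38A2 fell 3.25-fold and 3.21-fold. SLC1A3, which takes up glutamate and aspartate, went against them at 76, 65.9, 82.2 and 66.6 CPM in control and 165, 175, 173 and 169 CPM in the combination (log2 fold change 1.23, SE 0.08, adjusted p = 6.1e-12), with no overlap between groups. It was named by its adjusted p and direction in these libraries, so this gap largely follows from the choice.

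Serine, glycine, one-carbon and proline synthesis had 14 of 25 members lower and 4 higher (median -0.43), beside 27.9% and 27.7% of all genes tested. After PSAT1, PSPH, which completes serine synthesis, fell from 199, 329.5, 238 and 335 CPM to 29.2, 55.6, 33.6 and 39.9 CPM. PHGDH, the first enzyme of that pathway, was near 0 already in control, at 0.292 ± 0.10 CPM, and was 0.0118 ± 0.00817 CPM in the combination. The mitochondrial folate enzymes fell as well: SHMT2 3.42-fold and MTHFD2, at 923, 1168, 1087 and 1158 CPM in control and 158, 278, 168 and 158 CPM in the combination, 5.69-fold. The transaminases GOT1 and GPT2, which link glutamate to aspartate and alanine, fell 3.29-fold (adjusted p = 2.84e-11) and 3.44-fold (adjusted p = 3.93e-11). GLDC, the glycine decarboxylase, rose 4.01-fold, from 4.06 ± 0.747 to 16.3 ± 2.67 CPM (SD, n = 4). Of the cytosolic aminoacyl-tRNA synthetases, which load tRNAs for the ribosome, 19 of 20 were lower (95%) with a median log2 fold change of -1.37, and their summed CPM were 7713 ± 190.3 in control and 2847 ± 457 in the combination (SD, n = 4). GARS was at 807, 757, 838 and 812 CPM in control and 145, 245, 151 and 134 CPM in the combination, SARS fell 3.85-fold, CARS 5.3-fold, WARS 3.12-fold and AARS 3.28-fold. QARS, for glutamine, was the single one higher, at 169 ± 8.04 and 201 ± 8.46 CPM (log2 fold change 0.25, adjusted p = 0.00508), a call lost without control replicates 2 and 4 (log2 fold change 0.20, adjusted p = 0.0801). The mitochondrial synthetases, a separate set of genes, had 7 of 17 lower and 1 higher with a median of -0.06, and without combination replicate 4 the counts were 4 and 0. NARS2 had the smallest adjusted p among them, at 49.2 ± 2.05 and 33.2 ± 2.65 CPM. By adjusted p it was followed by MARS2 and TARS2, 1.72-fold and 1.32-fold lower. Without combination replicate 2 the cytosolic list again had 19 members lower and the serine list 15.

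Ribosome biogenesis was lower across its list: 39 of 44 members fell (88.6%, beside 27.9% of all genes tested) and 2 rose. Its median log2 fold change was -0.65. RRP12, an export factor of both ribosomal subunits, fell most, from 88.8, 76.7, 69.6 and 84.2 CPM to 17.7, 23.2, 19.1 and 16.8 CPM. RRN3, the initiation factor TIF-IA that carries growth signals to RNA polymerase I, fell from 115 ± 5.74 to 63.1 ± 3.78 CPM (SD, n = 4; adjusted p = 8.33e-09), and UTP15, of the processome that cuts pre-rRNA, 2.13-fold (adjusted p = 5.11e-09). POLR1A, the largest subunit of RNA polymerase I, fell 1.59-fold. FBL, the nucleolar methyltransferase fibrillarin, was at 309 ± 27.1 and 302 ± 38.6 CPM and was not called (adjusted p = 0.845). The genes of the cytosolic ribosomal proteins themselves had 71 of 78 members tested not called, 4 higher, 3 lower and a median log2 fold change of -0.01, which turned to 8 higher, 2 lower and a median of 0.06 with library sizes alone as scaling. The count lower was 1 without combination replicate 2 (median 0.03) or control replicate 4, and 6 without control replicate 3. RPS27, RPS25 and RPL22, all raised, had the smallest adjusted p among them, with RPS27 at 957, 1036, 929.6 and 1058 CPM in control and 1399, 1380.4, 1404 and 1592 CPM in the combination. Of translation factors, 18 of 30 tested were lower and 1 higher (median -0.31). EIF2S2, the beta subunit of eIF2, fell 2.44-fold and EIF2B2, of its exchange factor, 1.74-fold. The repressors of cap-dependent initiation that mTORC1 phosphorylates moved in opposite directions: EIF4EBP1 was at 172, 207, 145 and 232 CPM in control and 37.1, 59.3, 37.8 and 37.4 CPM in the combination, while EIF4EBP2 was at 164, 137, 161 and 133 CPM and 257, 242, 245 and 236 CPM.

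MYC, which drives ribosome and nucleotide synthesis genes, was at 301, 294, 247 and 329.8 CPM in control and 166, 154, 159 and 145 CPM in the combination, with a log2 fold change of -0.91 (SE 0.12, adjusted p = 2.61e-07). Its partner MAX fell 1.48-fold. MYCN, a MYC relative of neural and developing tissue, rose from 1.04, 0.67, 1.12 and 0.525 to 4.82, 3.54, 4.63 and 4.6 CPM and remained far below MYC in counts. MXD3, of the family that competes with MYC for MAX, rose 2.54-fold to 12.8 ± 1.1 CPM, while MXI1 was at 13.9 ± 0.895 and 14.5 ± 2.38 CPM and was not called (adjusted p = 0.742). In the whole network 6 of 13 members were higher and 4 lower, beside 27.7% and 27.9% of all genes tested.

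Glucose uptake, glycolysis and the pentose phosphate pathway had 17 of 31 members tested lower (54.8%, beside 27.9% of all genes tested) and 2 higher. Their median log2 fold change was -0.27.  The glucose transporter gene SLC2A1 was at 1537, 1445, 1208 and 1609 CPM in control and 654, 639, 559 and 549 CPM in the combination, and hexokinase 2, HK2, fell from 109 ± 7.08 to 28.5 ± 4.31 CPM (SD, n = 4), or 3.82-fold. PFKFB2, which makes the activator of phosphofructokinase, fell 1.91-fold (adjusted p = 8.01e-10). At the end of the pathway, PKM2, the pyruvate kinase gene PKM, fell 1.51-fold and LDHA, lactate dehydrogenase A, 1.8-fold. PDK1, the kinase that blocks pyruvate dehydrogenase, fell 1.76-fold. PFKL, the liver-type phosphofructokinase, rose from 94.9 ± 6.29 to 158 ± 4.83 CPM (adjusted p = 2.14e-08).

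In the tricarboxylic acid cycle 10 of 25 members were lower and 5 higher (3 without control replicate 2 or 3). Among all genes tested, 27.9% were lower and 27.7% higher, which also stand beside the next 3 lists. IDH2, the mitochondrial NADP-dependent isocitrate dehydrogenase, rose from 24.3, 24.6, 25.5 and 26 CPM to 69.1, 62.9, 66.9 and 57 CPM (log2 fold change 1.35, SE 0.09, adjusted p = 8.53e-12). SDHB, of succinate dehydrogenase, and SUCLA2, of succinyl-CoA synthetase, each fell 1.45-fold. Most nuclear subunits of the respiratory chain were not called: 49 of 73, with 17 lower and 7 higher (11 with the replicate number as a block). The count lower was 11 without combination replicate 1 or control replicate 4, and the count higher 4 without control replicate 3 or combination replicate 4. NDUFV3 and NDUFS7, of complex I, and ATP5B, the ATP synthase beta subunit, had the smallest adjusted p and fell 1.52-fold, 1.64-fold and 1.49-fold. Of nucleotide synthesis genes, 9 of 26 were higher and 10 lower. The count higher was 5 without combination replicate 1 or control replicate 4. CAD, which starts pyrimidine synthesis, rose 1.36-fold, from 85.6 ± 3.85 to 117 ± 6.14 CPM (SD, n = 4). The purine enzymes GART and ADSL fell 1.78-fold and 1.81-fold, and PPAT, the first of that pathway, was not called (adjusted p = 0.141). Polyamine genes were lower in 9 of 16 members tested and higher in 1. SMOX, the spermine oxidase, fell from 80.0, 87.1, 71.6 and 103 CPM to 25, 26.2, 23.8 and 23.6 CPM, arginase 2, ARG2, 1.99-fold and the antizyme inhibitor AZIN1 1.82-fold. ODC1, the rate-limiting ornithine decarboxylase, fell 1.27-fold, and ATP13A2, a lysosomal polyamine transporter, rose 1.31-fold.

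Cholesterol synthesis genes were higher: 17 of 28 members tested rose (60.7%, beside 27.7% of all genes tested) and 1 fell. Their median log2 fold change was 0.37. SREBF2, the gene of the transcription factor SREBP-2 whose promoter stretch is shown above, rose from 153 ± 6.04 to 211 ± 5.88 CPM (SD, n = 4). SQLE, squalene epoxidase, was at 136, 96.2, 170.4 and 91.4 CPM in control and 255, 264, 258 and 284 CPM in the combination. TM7SF2, a sterol reductase gene, rose 1.97-fold (adjusted p = 1.13e-07). HMGCS1, the HMG-CoA synthase, was at 336, 219, 398 and 206 CPM in control and 417, 495, 469 and 438 CPM in the combination. Control replicates 1 and 3 were the higher pair in SQLE and HMGCS1, and without control replicates 2 and 4 the call of HMGCS1 was lost (log2 fold change 0.30, adjusted p = 0.169). Fatty acid synthesis showed no common direction, with 6 of 19 members tested higher and 5 lower (3 without combination replicate 1 or control replicate 3). SREBF1, the gene of SREBP-1, fell 1.49-fold, and ACACB, the mitochondrial acetyl-CoA carboxylase, rose 2.4-fold from 2.6 ± 0.489 CPM. ELOVL7, a fatty acid elongase, rose 1.68-fold. ACLY and ACACA, which make cytosolic acetyl-CoA and malonyl-CoA, were at 302 ± 35.4 and 269 ± 15.7 CPM and at 117 ± 18.2 and 112 ± 8.64 CPM, and neither was called (adjusted p = 0.117 and 0.668).

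Genes of the interferon response and antigen presentation were higher in 33 of 37 members tested (89.2%, beside 27.7% of all genes tested) and lower in 2, with a median log2 fold change of 1.04. IFIT3, an antiviral effector, was at 6.38, 6.56, 7.45 and 7.41 CPM in control and 23.5, 21.5, 25.3 and 22.8 CPM in the combination. IFI27 rose from 1.94 ± 0.311 to 8.99 ± 0.835 CPM (SD, n = 4; adjusted p = 2.83e-13), and OASL, of the oligoadenylate synthetase family, from 10.8, 14.4, 12.1 and 14.8 CPM to 55.9, 47.7, 51.1 and 49.4 CPM. The groups did not overlap in these 3 genes, as in 25.8% of all genes tested in the upward direction. The 3 were named by their small adjusted p in these same libraries, so the gap largely follows from the choice. B2M, the light chain of class I HLA molecules at chr15:44711487-44718877 on the plus strand, was at 434, 629, 494 and 556 CPM in control and 957, 889, 1001 and 1385 CPM in the combination. IRF7, a master regulator of type I interferon, fell from 17.2 ± 2.35 to 11.2 ± 1.06 CPM (log2 fold change -0.62, adjusted p = 9.18e-06). Of the immune cell markers other than LYZ, CSF1R, a macrophage growth factor receptor gene, had means of 1.28 CPM in control and 1.2 CPM in the combination, and CD68, of macrophage lysosomes, 0.826 and 0.87 CPM. PTPRC, the pan-leukocyte marker, and CD3E, of T cells, had means of at most 0.04 CPM.

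In the complement list 8 of 12 members tested rose (66.7%, beside 27.7% of all genes tested) and CD55 alone fell. Besides CFB, CFI, which encodes the protease factor I, rose from 0.0108 ± 0.0127 to 0.494 ± 0.162 CPM, a level of under 1 CPM in every library, and 32% of its exon length is shared with another gene. Its log2 fold change was 5.26, and 6.09 without control replicate 3. C3, the central component, was at 0.0955 ± 0.0338 and 0.186 ± 0.105 CPM and was not called (adjusted p = 0.0956), although it passed without combination replicate 1 (adjusted p = 0.0386). Apolipoprotein genes rose in 11 of 13 members tested, and the other 2 were not called. APOL1, an interferon-inducible member, was at 3.27, 2.96, 2.92 and 2.26 CPM in control and 23.6, 17, 23.1 and 16.5 CPM in the combination (log2 fold change 2.82, SE 0.16, adjusted p = 4.93e-13). APOD rose from 3.1 ± 0.263 to 15 ± 1.41 CPM (SD, n = 4), APOA1, of high-density lipoprotein, from 0.554 ± 0.191 to 3.27 ± 0.521 CPM, and APOE from 0.311 ± 0.0705 to 0.984 ± 0.198 CPM. Members at or near 0 in control, such as CFI, had to pass the filter on low counts through other libraries, so the counts of these lists are descriptions. Sarcomere genes were higher in 9 of 16 members tested, of 28 listed, and lower in 2, and the same limit holds for these counts. MYH4, a fast muscle myosin gene of a family with near-identical members, went against TTN and TNNT2, at 48.2, 41.2, 29.4 and 47.1 CPM in control and 1.13, 2.47, 0.516 and 1.23 CPM in the combination. The muscle regulators MYOD1 and MYOG had 0 counts in all 8 libraries. The higher sum of muscle markers in the combination, given above, was carried by DES, the desmin gene, with means of 2.01 CPM in control and 6.18 CPM in the combination. Of the sarcomere markers in that sum, MYH2 had means of 0.225 and 0.0112 CPM and TNNI3 of 0.294 and 0.144 CPM, and MYH7 had 0 counts. ACTA1, a sarcomeric actin gene, went the other way, with means of 0.0499 and 0.105 CPM. Their part in the sarcomere counts was not tested.

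**Figure D3:**
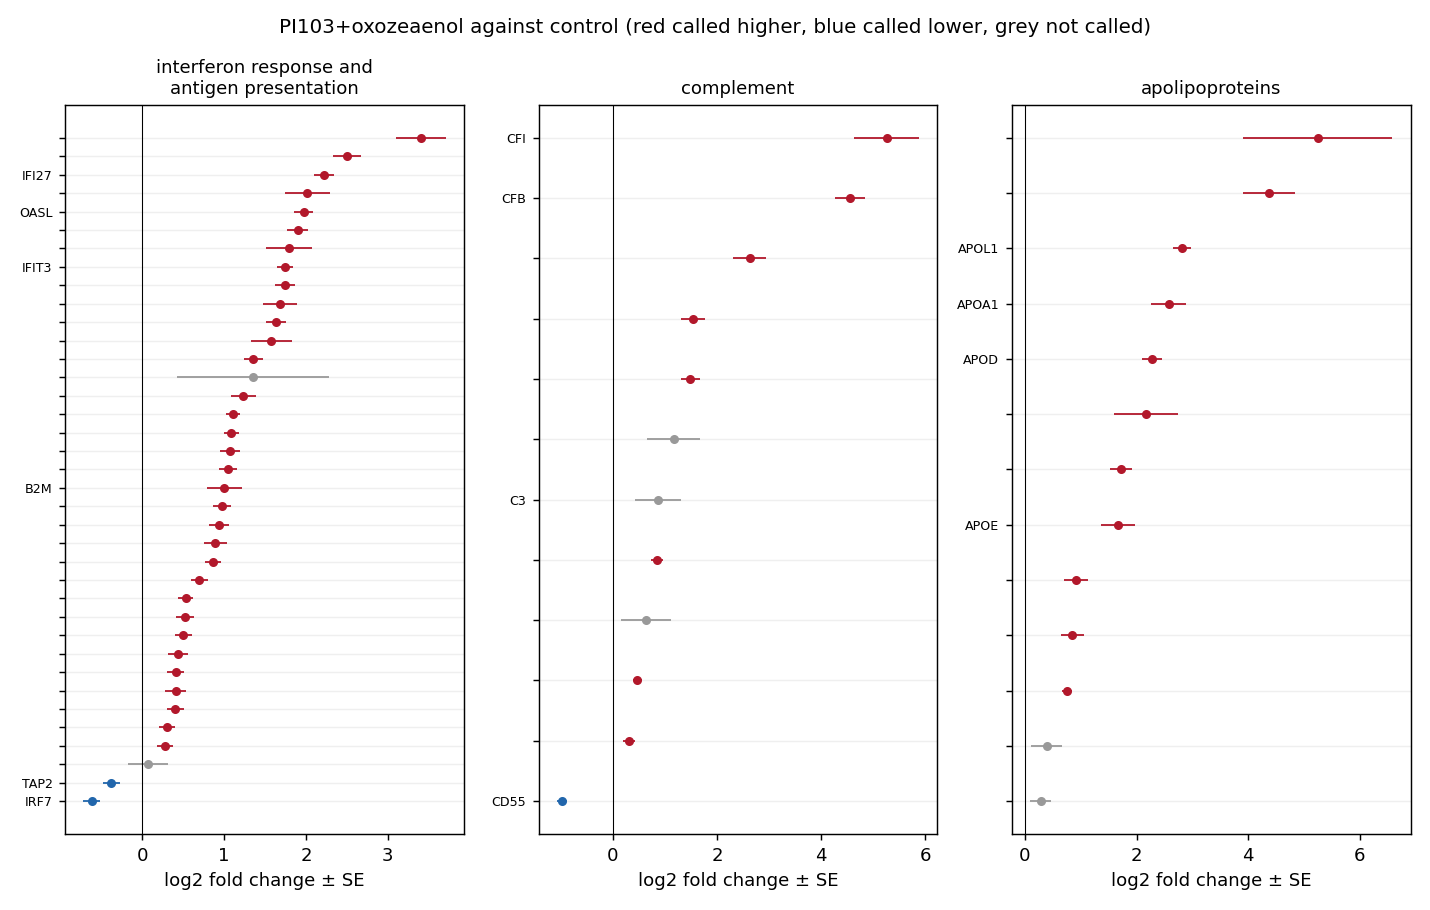
Log2 fold change of PI103 with oxozeaenol against control for each tested member of the interferon, complement and apolipoprotein lists, with the genes named in the text labelled; bars are ± 1 SE, red marks genes called higher, blue lower and grey not called. Most members lie to the right of 0, with IRF7 and TAP2, a peptide transporter gene named here after its values were seen, called lower in the first list and CD55 in the second.

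DNA replication genes and E2F targets rose in 24 of 33 members (72.7%, beside 27.7% of all genes tested), and the other 9 were not called. Their median log2 fold change was 0.61. Their summed CPM were 3191 ± 156 in control and 5005 ± 167 in the combination (SD, n = 4). E2F1 was at 30.1, 28.3, 28.1 and 28.6 CPM in control and 62.7, 48.7, 59.1 and 72 CPM in the combination, and E2F2 rose 2.23-fold. FEN1, the flap endonuclease of lagging-strand synthesis, rose from 64.6, 42.5, 56.7 and 41.2 CPM to 136, 125, 125 and 118 CPM, MCM6, of the replicative helicase, 1.95-fold and PCNA, the sliding clamp, 1.78-fold from 647 ± 23.7 CPM. Of mitotic genes, 29 of 32 were not called, 2 rose and 1 fell (2 with the block), with a median of 0.02. CDK1 rose from 229 ± 23.6 to 413 ± 22.3 CPM and BUB1B 1.63-fold, the latter call lost without control replicates 2 and 4 (log2 fold change 0.47). MKI67 and CCNB1 were not called, at 293 ± 33.1 and 352 ± 8.58 CPM and at 399 ± 12.9 and 337 ± 38.2 CPM (adjusted p = 0.263 and 0.393). CCNB2, a mitotic cyclin, fell 1.53-fold, a call lost without control replicate 4 (log2 fold change -0.54). Of the D and E cyclins and CDK inhibitors, 7 of 15 tested rose and 2 fell. CCNE1, cyclin E1, rose 1.71-fold, while CCND1, cyclin D1, was at 891 ± 58.9 and 710.2 ± 63.2 CPM and was not called (adjusted p = 0.0764; 0.0191 with the replicate number as a block). CDKN2B, the inhibitor p15, fell from 72.6, 74, 77.7 and 80.5 CPM to 25.6, 30.6, 26.2 and 30.0 CPM, CDKN1A, p21, fell 1.79-fold, and CDKN2C, p18, rose from 3.55 ± 0.444 to 8.77 ± 0.652 CPM. CDKN1B, p27, was not called (log2 fold change 0.17, adjusted p = 0.0636), although it passed without control replicate 3 or with the block (adjusted p = 0.0182 and 0.0495).

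The BCL2 family, which sets the threshold for apoptosis, had 4 of 13 members tested higher and 5 lower. BCL2L11, the pro-apoptotic gene BIM that FOXO and ERK signals control, was at 19.1, 14.7, 17.7 and 13.1 CPM in control and 32.8, 32.4, 32.9 and 34.7 CPM in the combination. BMF, another BH3-only gene, rose 2.02-fold. PMAIP1, which encodes NOXA, fell from 53.1, 86, 75 and 75.8 CPM to 12.1, 18.4, 11 and 13.3 CPM. MCL1, the survival protein that NOXA binds, fell 1.52-fold, and BCL2L1, which encodes BCL-XL, was at 549 ± 33.6 and 548 ± 37.3 CPM and was not called (adjusted p = 0.993). Of p53 target genes, 6 of 17 tested rose and 8 fell, beside 27.7% and 27.9% of all genes tested. GADD45A, a growth arrest gene also induced by ATF4, fell from 82.2 ± 13.5 to 15.5 ± 0.925 CPM (adjusted p = 1.49e-13), and TNFRSF10B, the death receptor DR5, 2.07-fold. MDM2 fell 1.32-fold, a call lost without control replicates 1 and 3 (log2 fold change -0.26), and ZMAT3 and TP53I3 rose 1.75-fold and 1.53-fold.

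Endoplasmic reticulum chaperones had 9 of 22 members higher and 6 lower, beside 27.7% and 27.9% of all genes tested. Their summed CPM were 9686 ± 834 in control and 14740.0 ± 1084 in the combination (SD, n = 4). PDIA4, a disulfide isomerase, was at 425, 372, 438 and 395 CPM in control and 1189, 951, 1099 and 967 CPM in the combination. XBP1, the transcription factor gene that IRE1 splices, fell from 372, 402, 407 and 444 CPM to 147, 160.1, 146 and 127 CPM, and ERN1, which encodes IRE1 itself, 4.27-fold from 11.2 ± 1.56 CPM. HSPA5, the chaperone BiP, was at 1641 ± 183 and 1764 ± 115 CPM and was not called (adjusted p = 0.511). Heat shock proteins had 5 of 20 members higher and 8 lower (5 without combination replicate 4). HSPA9, the mitochondrial HSP70, fell from 1060.1 ± 78.7 to 432 ± 50.9 CPM, and the inducible pair HSPA1A and HSPA1B, whose near-identical copies make their counts uncertain, rose 3.13-fold and 3.71-fold. As in HSPA8, control replicates 1 and 3 were the higher pair of HSPA1B, whose log2 fold change of 1.89 became 2.70 without them.

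NRF2 and glutathione genes had 12 of 22 members tested lower and 4 higher, beside 27.9% and 27.7% of all genes tested. NFE2L2, the gene of NRF2, fell from 239.7 ± 11.5 to 114 ± 11.3 CPM (SD, n = 4), and its target TXNRD1, thioredoxin reductase, 2.06-fold, while the transporter gene ABCC3 rose from 18.3, 16, 12.4 and 13.7 CPM to 50.8, 36.2, 46.6 and 55.4 CPM. HMOX1, heme oxygenase, was not called (adjusted p = 0.41), and NQO1 rose 1.2-fold, a call lost without control replicate 1 (adjusted p = 0.0596). Hypoxia-inducible factor targets had 6 of 14 members tested higher and 6 lower. HIF1A fell 1.36-fold, and the targets VEGFA, SLC2A1 and PDK1, the 3 with the smallest adjusted p, fell as given above. The list as a whole had a median log2 fold change of -0.06 and a highest of 1.03. In the aryl hydrocarbon receptor battery 4 of 9 members tested rose (2 without control replicate 1) and 4 fell. The receptor gene AHR, 29.4% of whose exon length overlaps a same-strand gene, fell from 92 ± 12.4 to 34.2 ± 1.95 CPM and its target TIPARP 2.41-fold. CYP1A1, a detoxifying oxidase, was at 14.3, 14, 9.53 and 12.8 CPM in control and 3.0, 5.29, 3.52 and 4.83 CPM in the combination, and ALDH3A1, an aldehyde dehydrogenase gene, rose 1.98-fold.

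Lysosome and autophagy genes had 22 of 47 members tested higher (46.8%, beside 27.7% of all genes tested) and 10 lower. Their median log2 fold change was 0.27. GAA, the acid alpha-glucosidase, was at 20.4, 18, 14.4 and 18 CPM in control and 57.7, 49.9, 56.9 and 57 CPM in the combination. NPC2, the lysosomal cholesterol carrier, rose from 129 ± 7.24 to 330.4 ± 29.3 CPM (adjusted p = 4.72e-11), and the membrane protein gene LAMP1 1.42-fold. MAP1LC3B, which encodes the autophagosome protein LC3B, fell from 363, 418, 308 and 449.8 CPM to 77.6, 83.5, 78 and 79.4 CPM, the largest change of the list (log2 fold change -2.27, SE 0.12, adjusted p = 6.07e-14). SQSTM1, the autophagy receptor p62, was not called (adjusted p = 0.0763; 0.0361 with the replicate number as a block). TFEB mRNA fell from 4.57 ± 0.496 to 3.44 ± 0.456 CPM (adjusted p = 0.027), a call lost without control replicate 4 or combination replicate 3 (adjusted p = 0.0952 and 0.106).

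Feedback genes of PI3K and mTOR with FOXO targets had 10 of 21 tested higher (47.6%, beside 27.7% of all genes tested) and 5 lower. Their median log2 fold change was 0.36. Summed over the list, CPM were 1981 ± 208.9 in control and 1185 ± 62.65 in the combination (SD, n = 4). INSR, the insulin receptor gene, rose from 15.7, 14.1, 16.3 and 13.6 CPM to 30.2, 24.3, 28.8 and 30.6 CPM. ERBB3, another receptor gene that FOXO can raise, rose 1.45-fold. The part of FOXO in these changes was not tested. CCNG2, a FOXO target that slows the cell cycle, rose 2.45-fold from 13.9 ± 3.5 CPM. TXNIP, an inhibitor of glucose uptake that FOXO and glucose sensing also control, fell from 442, 499.5, 415 and 489 CPM to 108, 108, 116 and 92 CPM, KLF6, a Krüppel-like factor gene, fell 2.35-fold and DEPTOR, an inhibitor bound to mTOR, fell from 0.891 ± 0.158 to 0.147 ± 0.0703 CPM. FOXO3 itself fell 1.82-fold, and FOXO1, IRS1 and PIK3IP1 were not called (adjusted p = 0.539, 0.28 and 0.552). IRS2 had 0 counts in all libraries of both groups. Genes of the inhibited kinases and their subunits had 4 of 18 members tested higher, 6 lower and a median of -0.06, and with library sizes alone as scaling the split turned to 7 higher and 2 lower. The count lower was 2 without control replicate 1 or combination replicate 4 and 3 without combination replicate 1. PIK3CA and PIK3CB, catalytic subunits of PI3 kinase, were not called (adjusted p = 0.185 and 0.733), the delta subunit gene PIK3CD rose 1.84-fold at a low level, and the regulatory subunit gene PIK3R2, whose exon length is overlapped to 87.2% by another annotated same-strand gene, rose 1.69-fold. AKT1 rose 1.34-fold and TAB2, an adaptor of TAK1, fell 1.59-fold. MAP3K7, which encodes TAK1, was at 67.8, 59, 68.7 and 59.4 CPM in control and 50.9, 62.4, 55.8 and 53.9 CPM in the combination (log2 fold change -0.19, adjusted p = 0.0467), a call that did not hold when control replicate 1 or 3 or combination replicate 1, 3 or 4 was left out, with log2 fold changes of -0.19 to -0.15. MTOR stood at 63.8 ± 2.16 and 54.2 ± 1.88 CPM (adjusted p = 0.0239), a call lost without control replicate 1 or 3 or combination replicate 1, 2 or 4, with log2 fold changes of -0.23 to -0.22.

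TGF-beta and BMP targets had 4 of 16 members tested higher and 5 lower, beside 27.7% and 27.9% of all genes tested. SMAD7, an inhibitor of that pathway, fell from 38.5 ± 1.81 to 21.5 ± 1.23 CPM (SD, n = 4) and BAMBI, a decoy receptor, 1.68-fold, while LTBP2, a matrix protein that binds microfibrils, rose from 1.63 ± 0.337 to 5.44 ± 0.798 CPM. ID1 was not called (adjusted p = 0.673). YAP and TEAD targets had 6 of 13 members tested lower and 2 higher. After ANKRD1, the matricellular gene CYR61 (CCN1) fell from 65.2, 84.1, 77.9 and 92.8 CPM to 43.6, 43.1, 37.7 and 35.5 CPM and AJUBA, a LIM protein gene, 1.99-fold, while CRIM1 rose 1.42-fold. Of Wnt and beta-catenin targets, 7 of 16 tested rose and 2 fell. LGR5, the stem cell receptor for R-spondins at chr12:71439770-71586310 on the plus strand, was at 123, 118, 141 and 118 CPM in control and 248, 240.3, 236 and 273 CPM in the combination (log2 fold change 0.99, SE 0.09, adjusted p = 7.78e-10). RNF43, which removes Wnt receptors, and DKK1, a secreted Wnt inhibitor, rose 1.73-fold and 1.79-fold, and SOX9, a progenitor factor, fell 1.58-fold. Other same-strand genes overlap 59.5% of the exon length of RNF43 and 25.2% of that of AXIN2. AXIN2, a negative feedback gene of the pathway, rose 1.19-fold (adjusted p = 0.0111), a call lost without control replicates 2 and 4 (log2 fold change 0.16).

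Gastric and intestinal differentiation genes rose in 13 of 21 members tested (61.9%, beside 27.7% of all genes tested), of 34 listed, and fell in 3. CDH17, the liver-intestine cadherin, was at 119.8, 106, 122 and 116 CPM in control and 248, 228, 219 and 204 CPM in the combination. The intestinal factor CDX2 was not called (log2 fold change 0.19, adjusted p = 0.133), and the Krüppel-like factors fell, KLF4 from 185 ± 16.1 to 40.7 ± 3.75 CPM and KLF5 1.86-fold. Keratin genes had 5 of 15 members tested higher and 6 lower. The basal keratin gene KRT14 rose from 0.692 ± 0.145 to 3.81 ± 0.749 CPM and KRT13 2.59-fold, while KRT16, of injured epidermis, fell from 1.77, 1.43, 1.04 and 1.42 CPM to 0.0387, 0.0501, 0 and 0.0379 CPM. In the epithelial-mesenchymal list 9 of 17 members tested fell and 3 rose. CDH1, E-cadherin, was at 13.3 ± 1.29 and 14 ± 0.719 CPM and was not called (adjusted p = 0.679), and CDH2, N-cadherin, was near 0 in both groups, at 0.176 ± 0.108 and 0.112 ± 0.071 CPM. VIM, vimentin, rose 1.74-fold at a level of 11.1 ± 0.371 CPM, CDH11, a mesenchymal cadherin, fell from 9.34, 10.7, 10.8 and 11 CPM to 1.43, 1.67, 1.25 and 1.4 CPM, and the epithelial splicing factor ESRP1 fell 1.68-fold. Plasminogen and matrix metalloproteinase genes had 5 of 9 members tested higher and 2 lower, of 17 listed. TIMP2, a metalloproteinase inhibitor, rose from 44.3 ± 4.93 to 109 ± 11.3 CPM (adjusted p = 1.27e-10), and PLAUR, the urokinase receptor, 1.73-fold, while MMP1 fell from 0.702 ± 0.23 CPM to 0.0418 ± 0.0237 CPM.

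**Figure D4:**
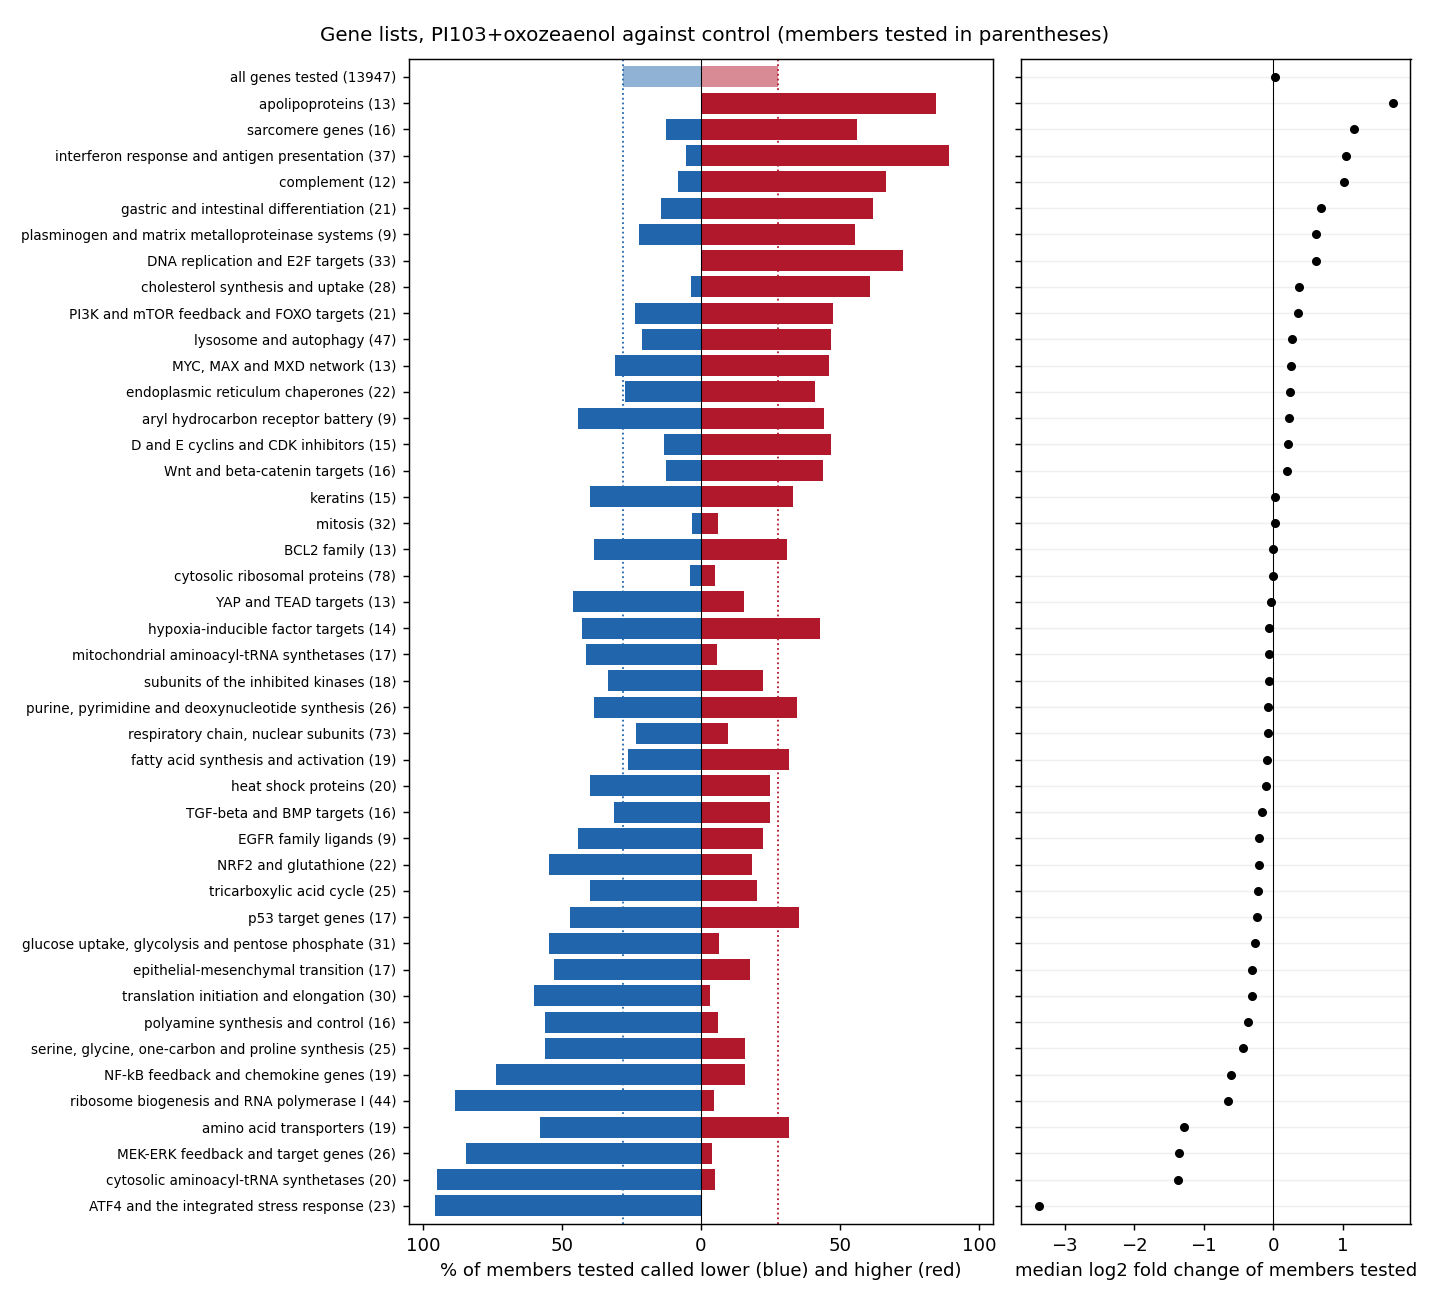
For each of the 43 lists and for all 13947 genes tested, the left panel gives the percent of tested members called lower (blue, to the left) and higher (red, to the right) in PI103 with oxozeaenol against control, with dotted lines at the shares of all genes tested; the right panel gives the median log2 fold change. The ATF4 list, the cytosolic aminoacyl-tRNA synthetases and the MEK-ERK list lie lowest, and the apolipoprotein, sarcomere and interferon lists highest. Of the apolipoprotein and sarcomere lists, 13 of 18 and 16 of 28 members were tested. In each, 1 tested member had 0 counts in control and passed the filter through other libraries.

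In 9 lists the shares called higher and lower were both within 15 percentage points of those of all genes tested, which makes them no result about their members. These were the lists of fatty acid synthesis, the tricarboxylic acid cycle, nucleotide synthesis, kinase subunits, the BCL2 family, endoplasmic reticulum chaperones, heat shock proteins, TGF-beta and BMP targets and keratins. The cut takes no account of list size, so lists outside it are not thereby results. Hypoxia-inducible factor targets, at 42.9% each way, lay just outside, as did short lists in which 1 member moves a share by many points. The plot of all lists sets every list beside all genes tested.

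Set beside its single agents, the combination held 50% of each concentration, and the 3 comparisons share libraries, so that each is given by its own test. Against PI103 alone 2553 genes (18.3%) were called, 1309 higher (9.39%) and 1244 lower (8.92%). Against oxozeaenol alone 2074 genes (14.9%) were called, 1059 higher (7.59%) and 1015 lower (7.28%). Fitted on the 8 libraries of PI103 and the combination alone, the first comparison called 4089 genes, 2142 of them lower. With the replicate number as a block, the count lower than with oxozeaenol alone became 1570. Against oxozeaenol the total also moved with single libraries, to 1050 without combination replicate 1, 1347 without combination replicate 3, 1312 without oxozeaenol replicate 3 and 2571 without oxozeaenol replicate 1.

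The largest rises over PI103 alone were TNNT2, TTN, PAGE4 and CCDC80. CCDC80, a secreted matrix protein gene, was at 8.78, 9.75, 7.63 and 10.4 CPM with PI103, 60.1, 52.5, 43 and 51.9 CPM with oxozeaenol and 74.3, 61.8, 59.5 and 65 CPM with the combination, beside 11.7 ± 0.898 CPM (SD, n = 4) in control. The combination lay above every PI103 library (log2 fold change 2.83, SE 0.13, adjusted p = 9.38e-14) and was not called against oxozeaenol (log2 fold change 0.33, adjusted p = 0.0728). CCDC80 was picked by the size of its rise over PI103, so the gap to PI103 largely follows from the choice. TNNT2 was at 1.0 ± 0.163 CPM with PI103 and 12.3 ± 1.99 CPM with oxozeaenol, TTN at 0.575 ± 0.199 and 10.1 ± 4.95 CPM and PAGE4 at 15.2 ± 4.73 and 202 ± 75.7 CPM, and the combination was not called against oxozeaenol in any of the 3 (adjusted p = 0.962, 0.114 and 0.0676). The largest falls below PI103 alone were ADAMTSL2, SLCO2A1, FLJ22447 and COLEC10. ADAMTSL2, a microfibril-binding protein gene, was at 1.43 ± 0.439 CPM in control, 9.53 ± 0.897 CPM with PI103, 0.564 ± 0.12 CPM with oxozeaenol and 0.68 ± 0.105 CPM with the combination. SLCO2A1, the prostaglandin transporter, was at 19, 17.5, 17.5 and 15.7 CPM with PI103 and 3.25, 4.79, 2.22 and 2.04 CPM with the combination, and COLEC10, a collectin gene, at 5.07 ± 0.637 and 1.22 ± 0.192 CPM.

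Against oxozeaenol alone the largest rises were SIGLEC6, KLK14, LBH and SYNPO. SIGLEC6, a sialic acid-binding lectin gene, was at 1.77, 1.55, 0.539 and 0.705 CPM with oxozeaenol and 7.66, 6.21, 7.47 and 7.4 CPM with the combination, beside 6.81 ± 0.861 CPM with PI103. KLK14, a secreted protease gene, had 1.68 ± 0.237 CPM with oxozeaenol, 6.78 ± 1.18 CPM with the combination and 5.73 ± 0.672 CPM with PI103. LBH, a transcriptional cofactor gene, and SYNPO, of actin-rich cell processes, lay between the single agents: LBH was at 1.84 ± 0.368, 5.63 ± 0.987 and 17.6 ± 2.21 CPM and SYNPO at 24.6 ± 2.87, 75.3 ± 11 and 117 ± 2.64 CPM with oxozeaenol, the combination and PI103. Both were called lower than with PI103 (adjusted p = 1.19e-08 and 0.000507) and higher than with oxozeaenol (adjusted p = 7.21e-07 and 1.68e-08). The largest falls were INHBE, NUPR1, DDIT4 and CHAC1, all targets of ATF4. NUPR1, a stress-induced chromatin protein gene, was at 10.6, 22.1, 7.24 and 7.51 CPM with oxozeaenol, 0.606, 3.52, 0.729 and 0.568 CPM with the combination and 0.338, 0.225, 0.206 and 0.226 CPM with PI103, and its log2 fold change against control went from -4.08 to -5.17 without combination replicate 2. In the ATF4 list as a whole, 19 of 23 members tested were lower than with oxozeaenol alone and the other 4 not called (median -1.47), and 8 were higher than with PI103 alone and the other 15 not called (median 0.81).

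Counts of list members against the single agents are to be read beside the shares of all genes tested. Against PI103 these were 9.39% higher and 8.92% lower, and against oxozeaenol 7.59% higher and 7.28% lower. Cholesterol genes were lower than with oxozeaenol alone in 18 of 28 members and higher in 1 (median -0.48), and their summed CPM were 3208 ± 331 in control, 3876 ± 295 with PI103, 5774 ± 376 with oxozeaenol and 4272 ± 164 with the combination (SD, n = 4). Respiratory chain subunits were lower than with oxozeaenol in 21 of 73 members and higher in 1 (median -0.34). TGF-beta and BMP targets were lower than with PI103 in 13 of 16 members and higher in 1, and higher than with oxozeaenol in 9, with no other member called. SMAD7 was at 36.6 ± 0.639 CPM with PI103, 21.5 ± 1.23 CPM with the combination and 13 ± 1.3 CPM with oxozeaenol. Feedback and FOXO target genes were lower than with PI103 in 8 of 21 members and higher in 1, and higher than with oxozeaenol in 12 and lower in 1. CCNG2 had 52.5 ± 5.18 CPM with PI103, 34 ± 3.13 CPM with the combination and 19.7 ± 1.03 CPM with oxozeaenol, and TXNIP 140.3 ± 15.6, 106 ± 10.2 and 48.7 ± 14.8 CPM. Interferon genes were higher than with PI103 in 15 of 37 members and lower in 2, and higher than with oxozeaenol in 9. Endoplasmic reticulum chaperones were higher than with PI103 in 11 of 22 members. DNA replication genes were higher than with PI103 in 7 of 33 members and higher than with oxozeaenol in 5, and CFB was called higher than with PI103 (log2 fold change 2.01, adjusted p = 1.48e-06) and higher than with oxozeaenol (log2 fold change 1.58, adjusted p = 8.67e-05).

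**Figure D5:**
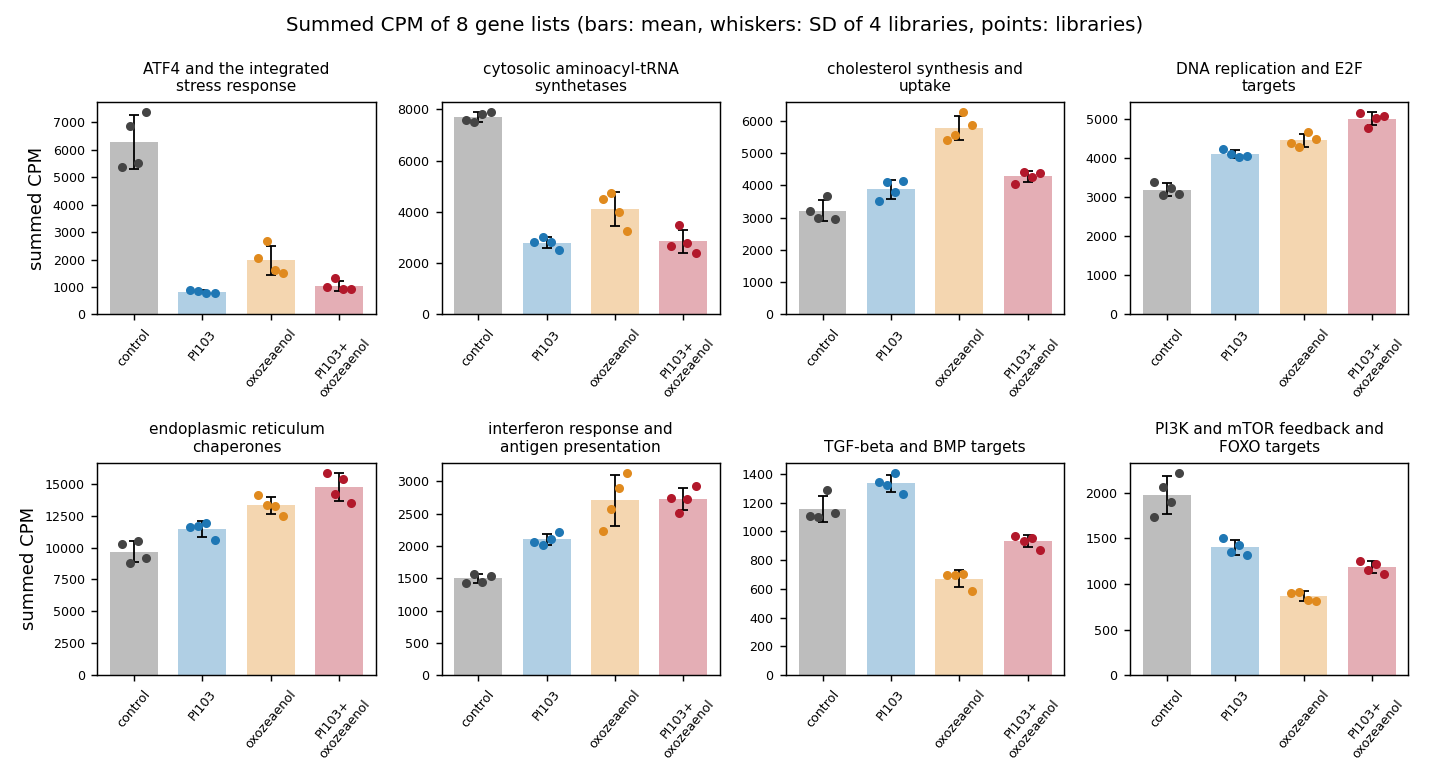
Summed CPM of 8 gene lists in control, PI103 alone (0.7 µM), oxozeaenol alone (0.5 µM) and the combination (0.35 µM and 0.25 µM); bars are means, whiskers the SD of 4 libraries and points the libraries. The sum of the ATF4 list falls from 6284 CPM in control to 1045 CPM in the combination, between the 822.5 CPM of PI103 and the 1972 CPM of oxozeaenol.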

How the data were processed

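RNA libraries were made with a stranded mRNA kit, per the labels' protocols. The authors deposited 1 table of raw read counts per gene symbol for 24 libraries, not pooled, with the GRCh build 38 per the submitters' processing notes. Aligner, counter, annotation and the use of strand in counting are not given in the sources used here, so overlapping genes on the 2 strands may share reads. Identical or nearly identical genes may also share or lose reads. The 5 closing tallies of unassigned reads were dropped: those with no feature were 5.20% to 8.5% of tallied reads in these 8 libraries, those with ambiguous assignment 1.66% to 1.87% and those aligned more than once 4.86% to 6.06%.

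Counts as deposited were fitted with edgeR 4.0.16 (R 4.3.3, limma 3.58.1): trimmed mean scaling, the default filter by group, which left 13947 of 23368 genes and 99.989% of counts, 1 coefficient for each of 6 groups over all 24 libraries (18 residual degrees of freedom) and the robust quasi-likelihood F test. The common biological coefficient of variation was 0.131. Calls had a Benjamini-Hochberg adjusted p under 0.05 over all genes tested, and an SE is the size of the log2 fold change over the root of its F. CPM use the scaled library sizes. A fold is the ratio of mean CPM, log2 CPM have a prior count of 2, and 3 counts were the floor for a group at 0. No 2 libraries of a group agreed within sampling noise. DESeq2 1.42.0, other scalings and filters, a replicate block and leaving out each library were alternatives, and leaving out control replicates 1 and 3 or 2 and 4 was added after seeing the data.

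By the labels each replicate number is a batch, which pairs the libraries. Deviations from the group means correlated at 0.12 on average over 60 same-numbered pairs in all groups (-0.14 to 0.56), beside -0.04 over 180 other pairs, and at 0.03 over the 4 pairs of control and combination.

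The 43 gene lists, the markers and the rules were chosen with earlier results of these data known. Named genes are the 10 largest rises and falls (mean of at least 5 CPM in the higher group, same sign in all 4 batches), the 5 largest gains and losses in CPM, in each list the 3 called members with the smallest adjusted p, the called member that went furthest against the list's median and the list's direct targets or regulators, and the 4 largest differences each way from either single agent. Some genes of the rule are not reported here. LYZ, TAP2 and the markers PTPRC, CD3E, CSF1R, CD68, DES, ACTA1, MYH2, MYH7, TNNI3, MYOD1 and MYOG are outside it. Positions and exon overlaps come from GENCODE 29 on GRCh38, which matched 21640 of the 23368 symbols, 1475 of them by synonym.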

Additional observations from a re-analysis of the deposited data

Results flagged for a closer look

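In 33 of 484 groups of 4 libraries checked among the named genes, 1 library stood apart: its gap to the nearest other library, on log2 CPM, took a share of the range of its group above Dixon's 95% critical value. Chance flags about 1 in 20 such groups, and genes that move together are not independent. The share of the range is given in parentheses.

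Combination replicate 2 accounted for 18 of the 33. It was the highest library of the combination in ASNS (0.907), CCNB2 (0.958), COLEC10 (0.891), DDIT4 (0.936), EIF4EBP1 (0.96), GPT2 (0.887), HMOX1 (0.876), MTHFD2 (0.884), NUPR1 (0.868), ODC1 (0.85), PSAT1 (0.895), SLC7A11 (0.856) and SLC7A5 (0.901). Among these, ASNS, DDIT4, EIF4EBP1, GPT2, MTHFD2, NUPR1, PSAT1, SLC7A5 and SLC7A11 are stress response and amino acid genes described above. It was the lowest in BMF (0.881), GAA (0.904), IFI27 (0.868), MYCN (0.857) and SIGLEC6 (0.846). With that library left out, each of these genes that was called against control kept its call.

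Control replicate 1 was the highest control library in AKT1 (0.872), CCNE1 (0.855), PIK3R2 (0.864), PLAUR (0.903) and TIPARP (0.887) and the lowest in AJUBA (0.898), CEBPG (0.891) and PIK3IP1 (0.90). Control replicate 3 was the lowest in SYNPO (0.849) and TNFRSF10B (0.8291). Combination replicate 4 was the highest in RHBDF1 (0.902), RPL22 (0.919) and RPS27 (0.883) and the lowest in PIK3CB (0.874) and PKM2 (0.943). The cause of these single values was not tested.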

How the results depend on the processing

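Against control, 7757 genes were called. Other scalings, filters and DESeq2 gave 6070 to 7923, with 6070 under a filter that left 9958 genes and 7923 with DESeq2. Upper-quartile scaling, which moved the median of all genes from 0.0179 to 0.0928, gave 4518 higher and 3282 lower. Leaving out 1 library gave 7095 to 7483 genes (3531 to 3775 higher, 3545 to 3708 lower). The control pairs 1 and 3 and 2 and 4 left 6945 and 6394 when taken out. A change of at least 2-fold kept 1884 (1184 higher, 700 lower), 523 against PI103 (308 and 215) and 269 against oxozeaenol (113 and 156), by construction.

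Against PI103, leaving out 1 library gave 1866 to 2259 (994 to 1172 higher, 871 to 1111 lower), and the fit on the libraries of those 2 groups alone gave 4089, with 2142 lower. Against oxozeaenol, leaving out 1 library gave 1050 to 2571 (542 to 1308 higher, 508 to 1263 lower). The cause was not tested in either. The replicate block, that is, the labelled batch, gave 8375 calls against control, 3347 against PI103 and 3091 against oxozeaenol, where the count lower moved from 1015 to 1570. Against control it also changed the calls of CCND1, CDKN1B and SQSTM1 and moved 3 list counts by over 1.5 times, as given above. It changed no other call of a named gene, and the other list counts against control moved by at most 1.5 times.

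Of the 242 genes named and tested, 218 were called against control, and 205 of these were called in the same direction under every alternative run for single genes. The other 13 lost their call under at least 1 alternative and none reversed: AXIN2, BUB1B, CCNB2, ETV5, HMGCS1, MAP3K7, MDM2, MTOR, NFKBIA, NQO1, QARS, TFEB and TNFAIP3. MAP3K7, MTOR and TFEB lost it under upper-quartile scaling (adjusted p = 0.19, 0.119 and 0.0779), AXIN2, NFKBIA and NQO1 without a filter (0.0638, 0.162 and 0.0912), and QARS and ETV5 without control replicates 2 and 4 (0.0801 and 0.0617). Genes listed as not called that passed elsewhere include MKI67 and CCNB1, which passed in the fit on 8 libraries alone (0.0111 and 0.0307). Of 1548 counts of list members under an alternative, 1419 were within 1.5 times the count given. Beside the lists given above with their libraries, leaving out 1 library moved counts of 2 or fewer members by 1 member: the counts higher of the MEK-ERK, ATF4, glycolysis and ribosome biogenesis lists and the counts lower of the mitosis, Wnt and sarcomere lists. Genes near 0 CPM rest on few counts, which limits their folds.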
